A study of Arabidopsis thaliana with 18 samples.

Results

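The genes described are 45 Arabidopsis thaliana genes of DNA replication and the mitotic cell cycle. They were chosen by locus identifier for what their products do, with earlier results of these data known. The other gene lists below were too, so shares of all genes are given beside counts for scale only. The 45 genes are 16 S phase genes, 22 mitotic genes and 7 regulators (CDKA;1, CKS1, CKS2, E2FA, E2FB, MYB3R1 and MYB3R4). They are 45 of the 37336 genes in the count table, and all 45 passed the filter on low counts, which 19100 genes passed in all. The samples were germinating seed of the Col-0 accession, the wild type, and of 8 lines, named in lower case after the gene each one targets. Per the study's methods, each line is homozygous for a T-DNA insertion (a stretch of bacterial plasmid DNA) of the SALK collection in a gene for 1 transcription factor. The lines athb15, athb25, hat2 and lmi1 target homeodomain proteins, smb and vnd2 target NAC proteins, obp1 targets a DOF protein and wrky14 a WRKY protein. The labels name no further allele in any genotype. Because 1 line stands for each gene, the insertion and any other difference of that line cannot be told apart. All 9 genotypes had the same handling: seed on MS medium was kept for 48 h in the dark at 4 °C, then moved into continuous light at 22 °C and collected after 24 h, a stage called 24 h SL. Seed pooled from several parent plants gave 2 RNA-seq libraries per genotype and 18 in all. Whether each duplicate had its own pool of seed is not stated, so the p-values measure only the spread between these libraries, which may be technical.

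Before a cell divides it copies its DNA once, in S phase. The MCM proteins form the helicase that opens the DNA, CDC6 and CDT1 load that helicase on replication origins, PCNA clamps the polymerase to its template, and ribonucleotide reductase makes the building blocks. Mitosis then needs A-type and B-type cyclins, the plant CDKB kinases that they bind, the CDC20 proteins that direct cyclin destruction, and proteins such as KNOLLE and HINKEL that build the new wall between daughter cells. In plants, E2F transcription factors act on many S phase genes, and MYB3R factors act on many mitotic genes through the mitosis-specific activator (MSA) element. Cells of the embryonic root resume the cell cycle around the time the root breaks through the seed coat.

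Library totals ran from 18146206 to 33111743 counts, of which 14619 to 27476 fell on the 45 genes. Values are given as CPM, a gene's counts per 1000000 counts of its library after scaling by the trimmed mean of M-values. Of the 8 targeted genes, 5 were called lower in their own line (ATHB15, ATHB25, HAT2, LMI1 and SMB). VND2 was at 0.300 CPM in vnd2 and 0.519 in Col-0, which the test could not tell apart at this depth (log2 fold change -0.75, SE 0.51, edgeR adjusted p = 0.414). OBP1 was at 12.7 CPM in the obp1 libraries and 8.69 in Col-0, and WRKY14 was at 10.4 CPM in the wrky14 libraries and 0.314 in Col-0. Neither transcript was lower in the line named for it, so in what follows obp1 and wrky14 mean the libraries labelled with those names. Whole seed was sampled, so that fewer cells of a kind and less RNA per cell cannot be told apart.

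The 250 bases before the annotated gene start of each of the 45 genes were searched on both strands for elements of the 2 classes. The E2F words searched were TTTCCCGC, TTTGGCGC, TTTCGCGC and TTTGCCGC. The MSA core was AACGG, and its longer form was CNAACGG, which contains the core. An E2F word was present before 7 of the 16 S phase genes, before 0 of the 22 mitotic genes and before 0 of the 7 regulators, against 1.40% of the windows of 27443 protein-coding genes. The longer MSA form was present before 8 of the 22 mitotic genes, 1 S phase gene (ICU2) and 0 regulators, against 4.50% of all windows. The core alone was present before 11 of 22 mitotic genes, 3 of 16 S phase genes and 2 of 7 regulators, against 20.6% of all windows. A match is a description of these letters and not evidence that a factor binds there.

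Windows of 6 genes that the results turn on are shown from the reference genome (RefSeq TAIR10.1), 5′ to 3′ on the strand of the gene, ending at the base before its annotated start. Capitals mark E2F words and MSA cores on either strand. The S phase windows are those of MCM5 (AT2G07690, chr2:3527501-3527750, minus strand), FAS1 (AT1G65470, chr1:24324092-24324341, minus strand) and TSO2 (AT3G27060, chr3:9981621-9981870, minus strand). MCM5 encodes a helicase subunit, FAS1 a subunit of the chromatin assembly factor CAF-1, and TSO2 a small subunit of ribonucleotide reductase.
MCM5: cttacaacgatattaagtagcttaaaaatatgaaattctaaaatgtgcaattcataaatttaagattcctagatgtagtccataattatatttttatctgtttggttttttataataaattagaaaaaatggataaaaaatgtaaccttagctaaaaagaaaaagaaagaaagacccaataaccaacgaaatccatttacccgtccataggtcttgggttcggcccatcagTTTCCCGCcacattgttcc
FAS1: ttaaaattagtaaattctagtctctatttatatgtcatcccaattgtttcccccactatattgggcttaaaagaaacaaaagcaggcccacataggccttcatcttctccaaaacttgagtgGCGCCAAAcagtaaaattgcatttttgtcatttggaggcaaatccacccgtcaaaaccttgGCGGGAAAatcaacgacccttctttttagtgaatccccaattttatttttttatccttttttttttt
TSO2: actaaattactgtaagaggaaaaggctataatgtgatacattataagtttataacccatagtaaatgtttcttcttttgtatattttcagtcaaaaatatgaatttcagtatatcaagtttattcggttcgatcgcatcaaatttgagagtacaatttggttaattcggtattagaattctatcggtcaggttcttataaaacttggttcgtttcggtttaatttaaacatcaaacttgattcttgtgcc

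MCM5 holds 1 E2F word, FAS1 holds 2, and TSO2, the S phase gene with the clearest difference below, holds none. The mitotic windows are those of CYCB1;2 (AT5G06150, chr5:1861704-1861953, minus strand), HINKEL (AT1G18370, chr1:6324379-6324628, minus strand) and CDC20.1 (AT4G33270, chr4:16046938-16047187, minus strand). CYCB1;2 encodes a B-type cyclin, HINKEL a kinesin of the dividing wall, and CDC20.1 an activator of the anaphase-promoting complex.
CYCB1;2: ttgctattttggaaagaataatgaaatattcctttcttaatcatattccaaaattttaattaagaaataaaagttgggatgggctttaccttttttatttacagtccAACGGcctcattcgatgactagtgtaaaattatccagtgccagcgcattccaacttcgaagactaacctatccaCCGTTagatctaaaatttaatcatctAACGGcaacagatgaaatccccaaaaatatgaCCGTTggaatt
HINKEL: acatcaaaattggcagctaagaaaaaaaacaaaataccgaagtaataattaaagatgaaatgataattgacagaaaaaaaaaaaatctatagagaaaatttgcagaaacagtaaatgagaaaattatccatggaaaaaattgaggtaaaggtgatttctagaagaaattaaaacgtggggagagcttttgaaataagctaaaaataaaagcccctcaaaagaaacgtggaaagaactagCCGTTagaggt
CDC20.1: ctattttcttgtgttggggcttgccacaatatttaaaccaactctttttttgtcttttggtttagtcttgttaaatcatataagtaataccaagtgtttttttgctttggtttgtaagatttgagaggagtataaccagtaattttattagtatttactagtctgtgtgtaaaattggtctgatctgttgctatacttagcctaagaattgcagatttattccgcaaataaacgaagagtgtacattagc

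CYCB1;2 holds 4 MSA cores, each part of the longer form, HINKEL holds 1 such form next to its start, and CDC20.1 holds none. Among S phase genes the E2F words lay before MCM2, MCM3, MCM4, MCM5, MCM6, ICU2 and FAS1, with 2 words each in ICU2 and FAS1. Among mitotic genes the longer MSA form lay before CYCA1;1, CYCB1;1, CYCB1;2, CYCB1;3, CYCB2;1, CYCB2;2, CYCB2;3 and HINKEL, 6 of the 7 cyclins in that set being B-type.

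**Figure D1:**
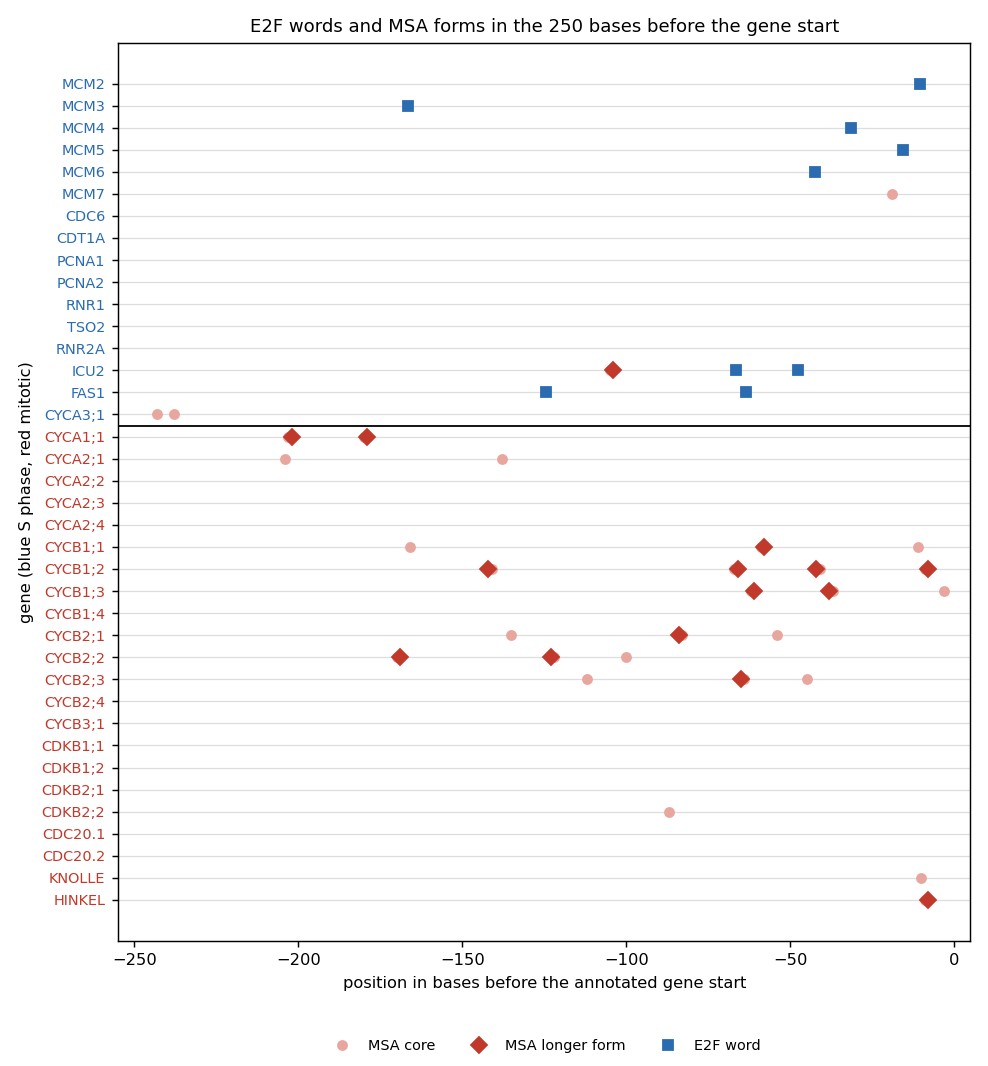
Positions of E2F words (blue squares), MSA cores (pale circles) and longer MSA forms (red diamonds) before the gene start, in bases, for the 16 S phase genes (upper rows, blue names) and the 22 mitotic genes (lower rows, red names). E2F words sit only in S phase rows, before 7 of 16 genes, and 8 of 22 mitotic rows hold a longer MSA form.

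The samples were compared to ask which genes depend on each transcription factor during germination. The first comparison asked whether each gene's level varied among the 9 genotypes, with no genotype set as reference. Mitotic genes varied and S phase genes varied little: 15 of 22 mitotic genes, 1 of 16 S phase genes and 1 of 7 regulators passed the edgeR quasi-likelihood F-test over genotypes (Benjamini-Hochberg adjusted p under 0.01), 17 of 45 in all, against 11.9% of all 19100 genes tested. Between the genotype with the highest mean and that with the lowest, the median mitotic gene differed 2.93-fold (range 1.45 to 6.68), the median S phase gene 1.28-fold (1.09 to 1.47) and the median regulator 1.15-fold (1.13 to 1.79). The difference exceeded 2-fold in 16 mitotic genes and in 0 genes of the other lists. With an adjusted p under 0.05 as the limit, 17 of 22 mitotic and 10 of 16 S phase genes passed, against 24.5% of all genes tested, and the S phase genes that passed varied by less than 1.5-fold.

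The lists differed in level. Per length of transcript, the mean over the 18 libraries was 0.420 to 5.99 RPKM (CPM per kilobase) for mitotic genes, with a median of 1.20, and 2.68 to 49.9 RPKM for S phase genes, with a median of 14.3. Counts per library ran from 0 to 429 for mitotic genes and from 90 to 3645 for S phase genes. The median standard error of a log2 fold change against Col-0 was 0.24 for mitotic and 0.08 for S phase genes, so the wider range of the mitotic genes was measured with the larger error. The widest range, 6.68-fold, was that of CYCB2;1, which had 0 counts in smb replicate 1 and 13 in smb replicate 2, and which did not pass the test over genotypes (adjusted p = 0.0362). Leaving out any 1 library or, in an alternative chosen after the data were seen, any 1 genotype left 12 to 15 mitotic genes past the threshold, Col-0 included among the genotypes left out.

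**Figure D2:**
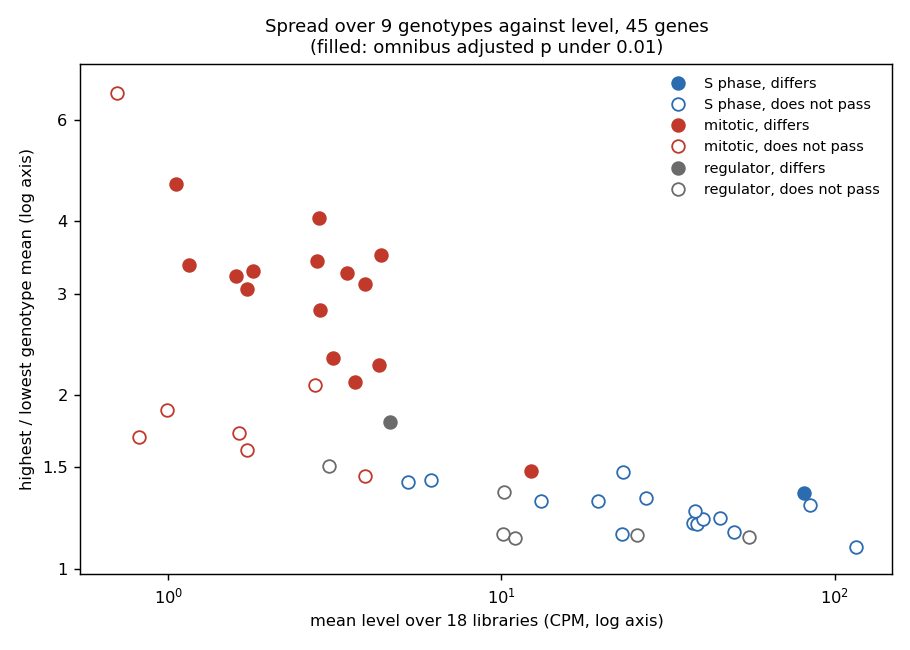
Ratio of the highest to the lowest genotype mean (log axis) against the mean level over 18 libraries in CPM (log axis), 1 point per gene, filled where the gene passed the test over genotypes. The mitotic genes (red) reach 6.68-fold at low levels, and the S phase genes (blue) all lie under 1.5-fold.

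HINKEL, the kinesin needed to complete the wall between daughter cells, varied most clearly of the 45 genes (adjusted p = 1.61e-05 over genotypes). It was at 4.63 and 4.40 CPM in Col-0, 2.94 and 4.15 in athb15, 4.98 and 4.38 in athb25, 4.10 and 5.21 in hat2, 5.14 and 5.11 in lmi1 and 3.07 and 3.78 in the libraries labelled obp1. It was at 1.26 and 1.90 CPM in smb, 1.89 and 1.35 in vnd2 and 2.08 and 1.53 in the libraries labelled wrky14. The 6 libraries of smb, vnd2 and wrky14 all lay below the other 12 libraries. Here and below, these 3 lines are set together after their mitotic values were seen, so such separations are descriptions only. How many of all genes separate the same libraries was not counted. Against Col-0 the log2 fold change was -1.45 (SE 0.23, adjusted p = 0.000706) in smb, -1.46 (SE 0.23, adjusted p = 0.000359) in vnd2 and -1.29 (SE 0.22, adjusted p = 0.00224) in the libraries labelled wrky14, all by edgeR. Under 25 alternative settings the call was kept in all 25 for vnd2, and was lost in 1 for smb and in 4 for wrky14. Here and below, 1 of the alternatives is the looser limit of an adjusted p under 0.05, where no call could be lost. KNOLLE, a syntaxin that fuses vesicles at the same wall, was at 3.63 and 3.98 CPM in Col-0, 3.50 and 3.53 in athb15, 3.30 and 3.93 in athb25, 2.84 and 3.54 in hat2, 3.67 and 4.62 in lmi1 and 3.24 and 2.18 in the libraries labelled obp1. It was at 1.04 and 1.39 CPM in smb, 1.96 and 0.826 in vnd2 and 2.14 and 0.927 in the libraries labelled wrky14. All 6 of these values were below the other 12 libraries, the nearest being 2.18 CPM in obp1. KNOLLE was called in smb at -1.60 (SE 0.33, adjusted p = 0.00707) and in vnd2 at -1.41 (SE 0.32, adjusted p = 0.00888), and these calls were lost in 8 and 14 of the 25 alternatives. Of the 1386 exon bases of KNOLLE, 464 lie opposite a neighbouring gene on the other strand, and whether counting used strand is not stated, so its values are uncertain to that extent.

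CDC20.1 and CDC20.2 are neighbouring genes for activators of the anaphase-promoting complex, which marks mitotic cyclins for destruction. CDC20.1 was at 6.59 and 5.72 CPM in Col-0, 5.26 and 4.88 in athb15, 4.69 and 6.18 in athb25, 5.08 and 4.50 in hat2, 7.07 and 5.89 in lmi1 and 4.46 and 5.34 in the libraries labelled obp1. It was at 1.58 and 2.12 CPM in smb, 2.66 and 1.26 in vnd2 and 3.18 and 1.69 in the libraries labelled wrky14. Its 6 libraries in smb, vnd2 and wrky14 were again all below the other 12. Its log2 fold change against Col-0 was -1.68 (SE 0.27, adjusted p = 0.000853) in smb, -1.61 (SE 0.27, adjusted p = 0.000655) in vnd2 and -1.29 (SE 0.25, adjusted p = 0.00687) in the libraries labelled wrky14. These calls were lost in 3, 1 and 9 of 25 alternatives. CDC20.2 was at 4.39 and 4.51 CPM in Col-0, 4.999 and 4.76 in athb15, 4.40 and 5.04 in athb25, 4.73 and 4.21 in hat2, 6.13 and 5.15 in lmi1 and 4.85 and 4.10 in the libraries labelled obp1. It was at 2.57 and 2.53 CPM in smb, 2.18 and 1.43 in vnd2 and 3.03 and 1.33 in the libraries labelled wrky14. CDC20.2 was called against Col-0 in vnd2 alone of the 8 comparisons, at -1.28 (SE 0.26, adjusted p = 0.00339), and was at -0.81 (SE 0.24, adjusted p = 0.0790) in smb and -0.98 (SE 0.24, adjusted p = 0.0329) in the libraries labelled wrky14. The call in vnd2 was lost in 3 of 25 alternatives, and in wrky14 CDC20.2 was called when wrky14 replicate 1 was left out, with no count filter or at an adjusted p under 0.05. Of the stretches of 31 exon bases in these genes, 37.6% in CDC20.1 and 41.4% in CDC20.2 occur elsewhere in the genome too, so reads may have been split between them or lost.

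B-type cyclins switch on the kinases of mitosis, and 9 of them were on the list. CYCB1;2 was at 3.53 and 2.96 CPM in Col-0, 3.04 and 3.90 in athb15, 3.41 and 4.30 in athb25, 3.38 and 4.21 in hat2, 4.89 and 3.85 in lmi1 and 3.14 and 3.12 in the libraries labelled obp1. It was at 0.873 and 1.33 CPM in smb, 1.37 and 0.782 in vnd2 and 1.93 and 0.887 in the libraries labelled wrky14. No library of smb, vnd2 or wrky14 reached the level of any other library. It was called in smb at -1.48 (SE 0.31, adjusted p = 0.00716) and in vnd2 at -1.55 (SE 0.31, adjusted p = 0.00331), calls lost in 8 and 3 of 25 alternatives. CYCB2;3 was at 3.15 and 3.87 CPM in Col-0, 3.30 and 2.75 in athb15, 3.11 and 2.82 in athb25, 3.31 and 4.11 in hat2, 3.98 and 4.62 in lmi1 and 3.17 and 3.03 in the libraries labelled obp1. It was at 1.26 and 1.96 CPM in smb, 1.89 and 1.17 in vnd2 and 1.99 and 1.85 in the libraries labelled wrky14. The values of smb and vnd2 again lay below the other genotypes apart from wrky14, with -1.07 (SE 0.23, adjusted p = 0.00795) in smb and -1.18 (SE 0.23, adjusted p = 0.00249) in vnd2 against Col-0. The call in smb was lost in 15 of 25 alternatives, with adjusted p up to 0.144, and that in vnd2 in 3. Of the 31-base stretches of exon, 20.6% in CYCB1;2 and 20.3% in CYCB2;3 occur elsewhere in the genome.

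CYCB2;2 had the steepest called change of the 45 genes, -1.92 (SE 0.38, adjusted p = 0.00447) in smb, where it fell from 34 counts in each Col-0 library to 5 and 14. In vnd2 it was at 17 and 5 counts, a change of -1.71 (SE 0.36, adjusted p = 0.00516), and each of these calls was lost in 4 of 24 alternatives. CYCB1;3, CYCB1;4 and CYCB2;4 passed the test over genotypes (adjusted p = 0.000543, 0.00168 and 0.000646) without a call against Col-0. CYCB1;4 shows how: it was at 1.72 and 1.55 CPM in Col-0, 2.74 in both in lmi1 and 2.71 and 2.62 in athb25, and 1.15 and 0.522 in vnd2, so Col-0 lay between the extremes. CYCB1;1, often used as a marker of cells at the G2 to M transition, did not pass the test over genotypes (adjusted p = 0.181), with -0.36 (SE 0.20, adjusted p = 0.289) in vnd2 and 3.06 and 3.76 CPM in smb against 4.68 and 3.75 in Col-0. CYCB2;1 and CYCB3;1 did not pass either (adjusted p = 0.0362 and 0.156).

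Among the A-type cyclins, which act from S phase to early mitosis, CYCA2;4 varied most clearly (adjusted p = 8.33e-05 over genotypes). It was at 3.06 and 3.71 CPM in Col-0, 3.61 and 3.45 in athb15, 4.36 and 4.30 in athb25, 2.998 and 3.82 in hat2, 4.67 and 4.50 in lmi1 and 2.999 and 2.86 in the libraries labelled obp1. It was at 2.02 and 1.96 CPM in smb, 1.996 and 1.96 in vnd2 and 2.39 and 1.69 in the libraries labelled wrky14. Its changes against Col-0 stayed above the threshold, from -0.78 (SE 0.19, adjusted p = 0.0117) in vnd2 to -0.72 (SE 0.18, adjusted p = 0.0365) in the libraries labelled wrky14, while 7 of its 36 pairs of genotypes were called, all of them between smb, vnd2 or wrky14 and athb25, lmi1 or hat2. CYCA1;1 was called in vnd2 at -1.69 (SE 0.27, adjusted p = 0.000402), from 38 and 64 counts in Col-0 to 18 and 15. CYCA2;3, the most abundant mitotic gene per library at a mean of 12.2 CPM, passed the test over genotypes (adjusted p = 0.00804) with a range of 1.48-fold, from 15.2 and 14.4 CPM in athb25 to 10.5 and 9.56 in vnd2. CYCA2;1 and CYCA2;2 did not pass (adjusted p = 0.373 and 0.306), and CYCA2;2 was at 1.86 and 1.49 CPM in smb against 1.43 and 1.74 in Col-0. The CDKB kinases, found in plants and produced from S phase to mitosis, differed among themselves. CDKB1;1 was at 4.16 and 4.81 CPM in Col-0 and 2.51 and 1.74 in vnd2. It was called in vnd2 at -1.07 (SE 0.19, edgeR adjusted p = 0.00138). CDKB2;1 passed over genotypes (adjusted p = 0.00715) but not against Col-0. CDKB1;2 and CDKB2;2 passed neither (adjusted p over genotypes 0.137 and 0.0483). Exons of CDKB1;1, CDKB1;2, CDKB2;1 and CDKB2;2 lie opposite a neighbouring gene on the other strand over 71, 281, 44 and 192 bases. Those of CYCA2;3 do so over 48 bases, and values of these 5 genes are uncertain to that extent.

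**Figure D3:**
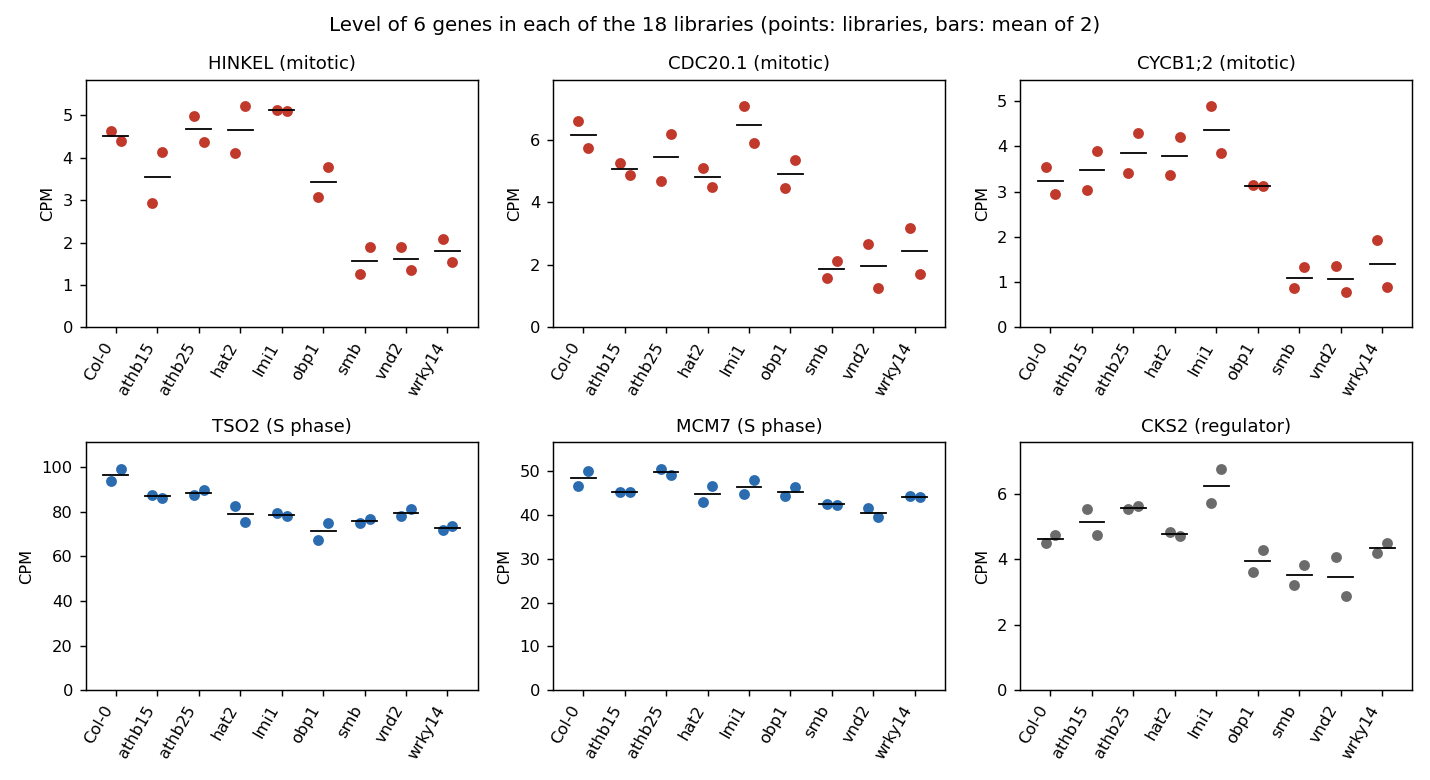
CPM of 6 genes in each of the 18 libraries, with points for libraries and bars for the mean of 2. HINKEL, CDC20.1 and CYCB1;2 separate smb, vnd2 and wrky14 from the other genotypes, whereas TSO2 and MCM7 stay within 1.5-fold over all genotypes.

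The second comparison set each line against Col-0. No member was called in athb15, athb25, hat2 or lmi1 by edgeR, against 0.147%, 1.62%, 0.66% and 1.1% of all genes tested. At an unadjusted p under 0.05 there were 5, 4, 4 and 5 of 45 members in these lines, against 9.83%, 21.5%, 15.7% and 20.3% of all genes, so these counts were near or below the background. DESeq2 called 0, 0, 1 and 1, the 1 being TSO2 both times. In the libraries labelled obp1, 1 member was called (TSO2), against 3.92% of all genes. In smb 7 members were called, all lower, of which 6 were mitotic, against 2.15% of all genes. In vnd2 10 members were called, all lower, of which 9 were mitotic, against 4.13% of all genes. In the libraries labelled wrky14, 3 members were called, all lower, of which 2 were mitotic, against 1.16% of all genes. None was called higher in any line.

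Over all 22 mitotic genes, the called ones included, most lay on the lower side in smb, vnd2 and wrky14. The median log2 fold change of the 22 mitotic genes against Col-0 was -0.80 in smb, -1.03 in vnd2 and -0.74 in wrky14, and the medians of all genes tested were within 0.02 of 0 in all 8 comparisons. In smb 21 of 22 mitotic genes were at a lower fitted level than in Col-0, in vnd2 22 of 22 and in wrky14 21 of 22, with 17, 16 and 14 at an unadjusted p under 0.05, which 14.04%, 23.2% and 15.7% of all genes had. In the other 5 lines the median lay nearer 0: athb25 had 0.08 and hat2 0.03, athb15 had -0.09, the libraries labelled obp1 -0.13 and lmi1 0.19. In lmi1 18 of 22 mitotic genes were at a higher fitted level than in Col-0, with none called. The members on the other side were CYCA2;2 in smb, at 0.03, and CYCA2;3 in wrky14, at 0.01. These 8 comparisons share the 2 Col-0 libraries and are not independent. The 22 genes were measured in the same libraries, so they are not independent of each other either.

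These counts against Col-0 rested on single libraries more than the test over genotypes did. The count for smb was 0 when smb replicate 1 was left out and 1 when smb replicate 2 was, and leaving out the first or second Col-0 library gave 1 or 2. The count for vnd2 was 12 when vnd2 replicate 1 was left out and 2 when vnd2 replicate 2 was, and leaving out the first or second Col-0 library gave 5 or 2. The count for wrky14 was 0 when wrky14 replicate 2 or Col-0 replicate 2 was left out and 1 when Col-0 replicate 1 was. The count for obp1 was 0 when obp1 replicate 1 was left out and 2 when either vnd2 library was. Over genotypes, 13 to 18 of the 45 members passed whichever library was left out.

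**Figure D4:**
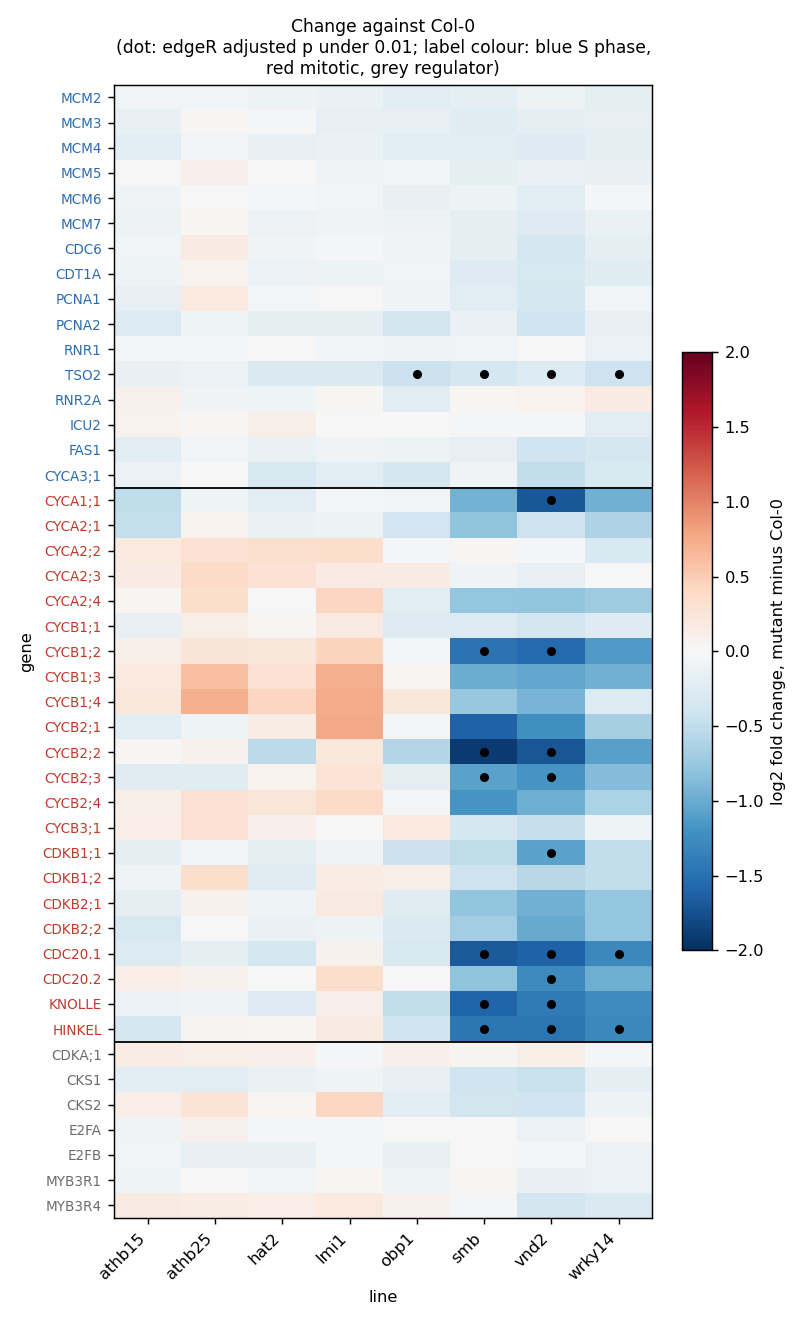
Log2 fold change against Col-0 of the 45 genes (rows) in the 8 lines (columns), with a dot where edgeR's adjusted p was under 0.01. The 21 dots are all on falls: 17 in mitotic rows under smb, vnd2 and wrky14, and 4 in the row of TSO2.

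All 36 pairs of genotypes were then tested in the same fit. They gave 127 member calls, 112 of them mitotic, 12 in S phase genes and 3 in regulators. This is 14.1% of the tests of mitotic genes, 2.08% of those of S phase genes and 1.19% of those of regulators, against 2.32% of all tests. The pair of athb25 and vnd2 held the most, with 20 members lower in vnd2 (15 mitotic, 4 S phase and 1 regulator) against 10.7% of all genes. Next came lmi1 and vnd2 with 15 members against 7.20% of all genes, hat2 and vnd2 with 12 against 5.63%, and lmi1 and smb with 12 against 1.71%. No member was called by edgeR between smb and vnd2, smb and wrky14, or vnd2 and wrky14, against 0.419%, 0.220% and 1.62% of all genes. With shares this low, 0 of 45 does not set the members apart from other genes. DESeq2 called 0 members in each of these pairs. At an unadjusted p under 0.05 these pairs held 6, 1 and 8 of 45 members, against 11.4%, 8.42% and 20.06% of all genes. The median mitotic log2 difference was -0.09 for vnd2 minus smb, 0.12 for wrky14 minus smb and 0.28 for wrky14 minus vnd2. Pairs that share a genotype are not independent. HINKEL was called in 15 pairs, CYCB1;2 in 14 and CDC20.1 in 13, and every one of the 112 mitotic calls set smb, vnd2 or wrky14 below another genotype.

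In the S phase list, TSO2 was the only gene past the threshold over genotypes (adjusted p = 0.000607). TSO2 is a small subunit of ribonucleotide reductase, the enzyme that turns ribonucleotides into the deoxyribonucleotides of DNA. It was at 93.8 and 99.2 CPM in Col-0, 87.5 and 86.4 in athb15, 87.5 and 89.6 in athb25, 82.6 and 75.3 in hat2 and 79.4 and 78.2 in lmi1. It was at 75.2 and 76.6 CPM in smb, 78.2 and 81.1 in vnd2 and 71.7 and 73.5 in the libraries labelled wrky14. The libraries labelled obp1, at 67.4 and 75.1 CPM, had the lowest mean. Both Col-0 libraries were above all 16 others. Its log2 fold change was -0.44 (SE 0.06, adjusted p = 0.000339) in the libraries labelled obp1, -0.35 (SE 0.06, adjusted p = 0.00285) in smb, -0.28 (SE 0.06, adjusted p = 0.00943) in vnd2 and -0.41 (SE 0.06, adjusted p = 0.00120) in the libraries labelled wrky14. All these calls share the same Col-0 libraries, and with Col-0 left out TSO2 no longer passed the test over the other 8 genotypes (adjusted p = 0.0140). Then 0 S phase genes passed by edgeR, and 9 of 16 had an unadjusted p under 0.05 against 36.3% of all genes. DESeq2 called 3 S phase genes, and 12 of 22 mitotic genes passed by edgeR. The share of all genes past the adjusted limit without Col-0 was not counted, so these adjusted counts have no background beside them. The call in vnd2 was lost in 16 of 25 alternatives, that in smb in 5, that in wrky14 in 3 and that in obp1 in 1. RNR2A, the other small subunit on the list, was at 82.96 and 85.1 CPM in Col-0, 90.4 and 88.3 in athb15, 77.4 and 82.9 in athb25, 75.96 and 82.2 in hat2, 81.5 and 88.6 in lmi1 and 67.4 and 77.7 in the libraries labelled obp1. It was at 86.9 and 86.7 CPM in smb, 87.6 and 89.2 in vnd2 and 94.7 and 92.9 in the libraries labelled wrky14. RNR2A thus had its lowest mean in obp1, as TSO2 did, but its highest mean in wrky14 and not in Col-0. Its log2 difference for wrky14 minus obp1 was 0.37 (edgeR adjusted p = 0.00242). RNR1, the large subunit, had the narrowest range of the 45 genes, 1.09-fold.

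The 6 MCM helicase genes were close in all genotypes. MCM7 was at 46.7 and 50.1 CPM in Col-0, 45.2 and 45.3 in athb15, 50.5 and 49.04 in athb25, 42.95 and 46.7 in hat2, 44.9 and 47.9 in lmi1 and 44.3 and 46.3 in the libraries labelled obp1. It was at 42.5 and 42.3 CPM in smb, 41.6 and 39.5 in vnd2 and 44.3 and 44.2 in the libraries labelled wrky14. Both vnd2 libraries of MCM7 were below the other 16, at -0.26 (SE 0.07, adjusted p = 0.0173) against Col-0, and MCM7 was called between athb25 and vnd2 (log2 difference -0.30, adjusted p = 0.00337). PCNA1, a gene for the sliding clamp, was at 24.02 and 24.7 CPM in Col-0, 22.3 and 21.1 in athb15, 26.1 and 30.1 in athb25, 24.5 and 23.5 in hat2, 26.2 and 21.97 in lmi1 and 22.3 and 24.3 in the libraries labelled obp1. It was at 18.7 and 22.9 CPM in smb, 20.3 and 17.99 in vnd2 and 23.4 and 23.9 in the libraries labelled wrky14. Its change was -0.35 (SE 0.11, adjusted p = 0.0441) in vnd2 against Col-0, and it was called between athb25 and vnd2 (log2 difference -0.55, adjusted p = 0.000982). FAS1 was at 14.4 and 14.9 CPM in Col-0, 12.3 and 12.97 in athb15, 13.4 and 14.8 in athb25, 12.5 and 14.3 in hat2, 14.2 and 13.7 in lmi1 and 13.7 and 13.8 in the libraries labelled obp1. It was at 13.4 and 12.9 CPM in smb, 11.1 and 11.2 in vnd2 and 12.2 and 10.8 in the libraries labelled wrky14. The FAS1 libraries of vnd2 were below all Col-0 libraries, at -0.39 (SE 0.09, adjusted p = 0.0109), just above the threshold.

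The other S phase genes stayed within the same narrow ranges. CDC6 and CDT1A, which load the helicase at origins, had ranges of 1.42-fold and 1.31-fold between genotype means, and CDT1A was at 21.1 and 21.3 CPM in Col-0, 21.1 and 23.4 in athb25 and 18.6 and 15.3 in vnd2. CDT1A was called between athb25 and vnd2 (log2 difference -0.38, adjusted p = 0.00756). CYCA3;1, a cyclin of the start of S phase, was at 5.64 and 6.37 CPM in Col-0, 5.97 and 6.10 in athb25 and 4.62 and 3.91 in vnd2, and it was called for the same pair (log2 difference -0.49, adjusted p = 0.00947). MCM2 to MCM6 had ranges of 1.15-fold to 1.22-fold, and of these only MCM5 was called in any pair, lower in smb than in athb25 (log2 difference -0.28, adjusted p = 0.00909). PCNA2, the second clamp gene, was at 29.99 and 32.1 CPM in Col-0 and 25.9 and 20.95 in vnd2, and it was called in no pair (adjusted p over genotypes 0.0481). ICU2, the catalytic subunit of DNA polymerase alpha, was called in no pair either (adjusted p over genotypes 0.104). Exons of ICU2, PCNA2, RNR2A and CDC6 lie partly opposite a gene on the other strand, over 870, 279, 153 and 123 bases.

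Over the whole S phase list the differences against Col-0 were small and mostly downward. None of its 128 changes exceeded 0.5 on the log2 scale, and they ran from -0.49 to 0.20. The median was lowest in vnd2, at -0.26, followed by smb at -0.18, wrky14 at -0.17 and obp1 at -0.13, and it was between -0.09 and -0.00087 in the other 4 lines. In vnd2 12 of 16 S phase genes had an unadjusted p under 0.05, in wrky14 9, in smb 7 and in obp1 6, against 23.2%, 15.7%, 14.04% and 24.6% of all genes. Apart from TSO2, no S phase gene was called against Col-0 in any line. The lowest genotype mean was that of vnd2 in 9 of 16 S phase genes, and the highest was that of athb25 in 8 and of Col-0 in 5. For mitotic genes the lowest mean was that of vnd2 in 14, smb in 7 and wrky14 in 1 of 22, and the highest was that of lmi1 in 15, athb25 in 5 and Col-0 in 2.

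Of the 7 regulators, CKS2 passed the test over genotypes (adjusted p = 0.00566). It encodes a small subunit that docks on cyclin-dependent kinases. It was at 4.49 and 4.74 CPM in Col-0, 5.51 and 4.72 in athb15, 5.53 and 5.61 in athb25, 4.83 and 4.71 in hat2, 5.70 and 6.75 in lmi1 and 3.59 and 4.26 in the libraries labelled obp1. It was at 3.22 and 3.83 CPM in smb, 4.07 and 2.87 in vnd2 and 4.19 and 4.48 in the libraries labelled wrky14. It was called lower in vnd2 than in lmi1 (log2 difference -0.82, adjusted p = 0.00178), and 67 of its 762 exon bases overlap a gene on the same strand. CKS1, the other subunit of this kind, was at 13.1 and 10.5 CPM in Col-0, 11.03 and 9.19 in athb15, 10.7 and 9.29 in athb25, 10.4 and 10.9 in hat2, 11.05 and 11.003 in lmi1 and 9.83 and 11.1 in the libraries labelled obp1. It was at 9.22 and 8.54 CPM in smb, 8.21 and 9.08 in vnd2 and 9.89 and 10.5 in the libraries labelled wrky14. CKS1 did not pass (adjusted p = 0.116). The kinase CDKA;1 and the transcription factors E2FA, E2FB, MYB3R1 and MYB3R4 did not pass, with adjusted p from 0.189 for MYB3R4 to 0.884 for E2FA. MYB3R4, an activator of mitotic genes, was at 2.58 and 3.37 CPM in Col-0 and 2.59 and 2.04 in vnd2.

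Other genes of the same processes, listed by function but also with earlier results of these data known, were tested in the same fits. Of 21 further mitosis genes (kinesins, microtubule and checkpoint proteins), 7 passed the test over genotypes, against 11.9% of all genes. Of these 21, 3 in smb, 7 in vnd2 and 1 in wrky14 were called lower than Col-0. Calls in either direction made up 2.15%, 4.13% and 1.16% of all genes in these lines. ATK5, a kinesin of the spindle, changed by -1.24 in smb (SE 0.21, edgeR adjusted p = 0.00135), -1.63 in vnd2 (SE 0.22, adjusted p = 7.81e-05) and -1.08 in the libraries labelled wrky14 (SE 0.20, adjusted p = 0.00499). TOPII, the topoisomerase that untangles chromosomes, changed by -0.86 in vnd2 (SE 0.14, adjusted p = 0.000428), and POK2, a kinesin that places the division plane, by -1.02 (SE 0.19, adjusted p = 0.00229). Of 22 further replication genes 1 passed over genotypes, a share below the 11.9% of all genes. At an unadjusted p under 0.05 there were 11 of these 22, against 38.6% of all genes, and DESeq2 called 0. In vnd2, 18 of the 22 were at a lower fitted level than in Col-0. There 9 of the 22 had an unadjusted p under 0.05, against 23.2% of all genes. ORC1B, a subunit of the origin recognition complex, was the only one of the 22 called against Col-0 by edgeR (-0.41 in vnd2, SE 0.09, adjusted p = 0.00595), where 4.13% of all genes were called. Of 13 genes for the replication histones H3.1 and H4, 0 passed over genotypes by edgeR, 11 had an unadjusted p under 0.05 against 38.6% of all genes, and DESeq2 called 4. In single comparisons HTR2 (-0.39, SE 0.08, adjusted p = 0.00445) and the H4 gene AT2G28740 (-0.39, SE 0.09, adjusted p = 0.00894) were called in vnd2 by edgeR. These are 2 of the 13, against 4.13% of all genes. Of 21 inhibitors and brakes of the cycle, 2 passed over genotypes, near the 11.9% of all genes. Against Col-0 edgeR and DESeq2 called 0 of them in every line, with 0 to 7 per line at an unadjusted p under 0.05 against 9.83% to 24.6% of all genes.

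Summed over the 22 mitotic genes, the level was 71.5 and 72.4 CPM in Col-0, and it ran from 64.6 and 66.0 in the libraries labelled obp1 to 85.7 and 81.0 in lmi1 among the 5 lines without a mitotic call. It was 42.0 and 43.6 CPM in smb, 45.3 and 32.5 in vnd2 and 51.1 and 40.8 in wrky14, with no overlap between these and the other 12 libraries. Summed over the 16 S phase genes it was 601 to 713 CPM in the 18 libraries, 674 and 713 in Col-0 and 633 and 620 in vnd2.

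**Figure D5:**
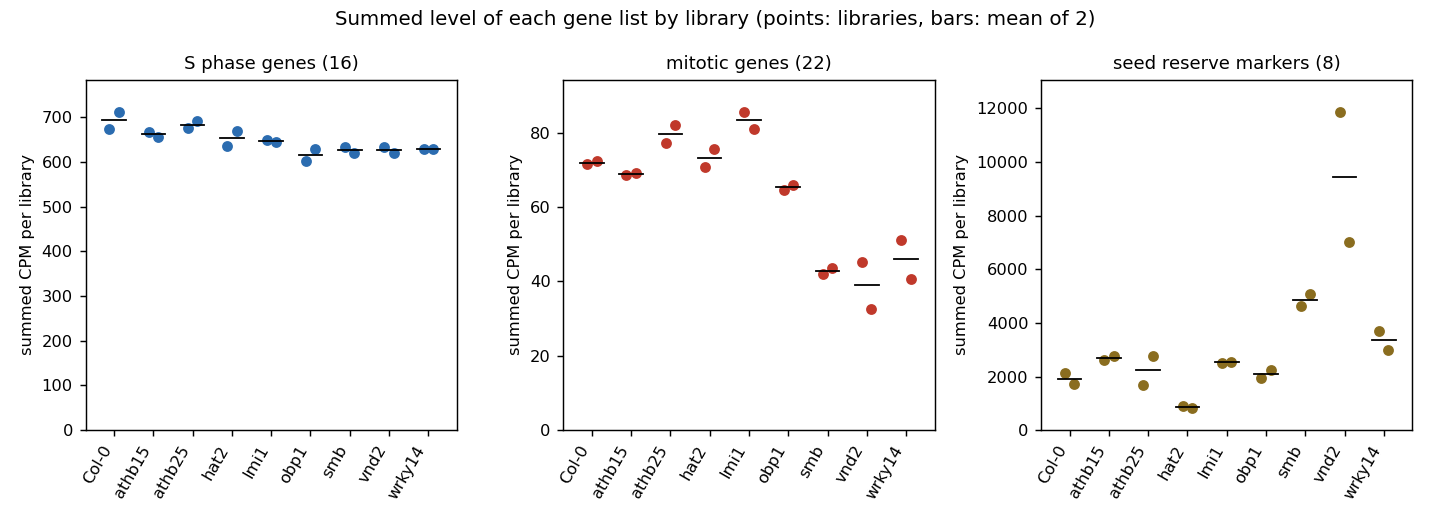
Summed CPM per library of the 16 S phase genes, the 22 mitotic genes and 8 seed reserve markers, with points for libraries and bars for the mean of 2. The mitotic sum is 32.5 to 51.1 CPM in smb, vnd2 and wrky14 and 64.6 to 85.7 elsewhere, and the reserve sum is 2995 to 11882 CPM in the former and 823 to 2782 elsewhere.

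Transcripts for seed storage proteins are made as the seed matures and decline as it germinates. Their summed level was highest in smb, vnd2 and wrky14, the lines where mitotic genes were lower, but was not above Col-0 in these lines alone. All 8 reserve markers (3 cruciferin and 5 albumin genes) passed the test over genotypes, against 11.9% of all genes. Their sum was 2115 and 1717 CPM in Col-0, 4644 and 5082 in smb, 11882 and 7021 in vnd2 and 3696 and 2995 in wrky14. Called higher than Col-0 were 5 of 8 in smb, 8 of 8 in vnd2 and 1 of 8 in wrky14. Of all genes, 2.15%, 4.13% and 1.16% were called in either direction in these lines. In hat2 the sum was 916 and 823 CPM, with 7 of 8 called lower than Col-0, against 0.66% of all genes called. The mitotic sum in hat2 was 70.6 and 75.7 CPM against 71.5 and 72.4 in Col-0. The reserve sum was 1671 to 2782 CPM in the other 4 lines. Among these it was above both Col-0 libraries in athb15 (2626 and 2761 CPM) and in lmi1 (2496.5 and 2551 CPM). The mitotic sum was 68.5 and 69.2 CPM in athb15 and 85.7 and 81.0 CPM in lmi1. Of 4 root meristem markers 3 were tested and 0 passed over genotypes by edgeR or DESeq2. At an unadjusted p under 0.05 there was 1 of the 3, against 38.6% of all genes. The summed level of the 4 was 74.0 to 92.4 CPM in the 18 libraries. The part of these reserve transcripts in the mitotic differences was not tested.

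Mitotic genes passed the test over genotypes both with and without an MSA element in the window. Of the 8 mitotic genes with the longer MSA form 6 passed, and of the 14 without it 9 passed, with median ratios of highest to lowest genotype mean of 3.31 and 2.18. By the core alone it was 7 of the 11 with it and 8 of the 11 without it, with median ratios of 3.25 and 2.26. CDC20.1, printed above with no MSA core, was among the genes with the smallest p, and CYCB1;1, with the longer form, did not pass. Of the 7 S phase genes with an E2F word 0 passed the test over genotypes by edgeR or DESeq2, with 5 at an unadjusted p under 0.05 against 38.6% of all genes, and of the 9 without it 1 passed (TSO2), with median ratios of 1.20 and 1.33. These counts are a description of 38 genes and were given no test.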

How the data were processed

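RNA-seq libraries were polyA-selected and strand-specific, and all were sequenced on 1 flow cell. Per the labels and the study's methods, the authors trimmed reads with Trim Galore (0.4.2), aligned them to TAIR10 with HISAT2 (2.0.5) and made counts per Araport11 gene with featureCounts (1.5.1). The deposited counts are raw, and the strand setting used in counting is not given in the sources used here. Other tools that the submitters' notes name made no file used here, and columns of other series numbered 0. The 45 members and all other lists were chosen with earlier results of these data known.

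Genes passing edgeR's filterByExpr (19100 of 37336, of which 11015 had no count) were fitted in 1 quasi-likelihood model of the 18 libraries with TMM scaling (R 4.3.3, edgeR 4.0.16, limma 3.58.1), giving 9 residual degrees of freedom and a common biological coefficient of variation of 5.87%. Genotypes were tested together, each line against Col-0, and in 36 pairs. A call needs a Benjamini-Hochberg adjusted p under 0.01 over all genes tested, and fold changes are mutant minus Col-0 on the log2 scale. Alternatives were DESeq2 (1.42.0) size factors or test, no count filter, a mean of at least 50 counts, a threshold of 0.05, models of 4 libraries, a replicate block, and leaving out each library or, added after the data were seen, each genotype. The scripts were tested on simulated data. Duplicates differed by more than counting noise (chi-square per degree of freedom 2.21 to 9.92), so none was 1 library deposited 2 times, which does not show that they came from separate seed. Values of all libraries are given for the 5 S phase, 6 mitotic and 2 regulator genes with the smallest p over genotypes and for genes that carry a result. Genes outside the 45 are named only if called, at most 3 per list with the smallest p. Promoter windows were placed by the gene positions deposited with the counts, and their sequence is RefSeq's for TAIR10.1. All 45 loci had the same start and end in RefSeq, as did 99.5% of the 37051 nuclear genes. Python 3.11.15, pandas 2.3.3 and matplotlib 3.10.9 were used.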

Additional observations from a re-analysis of the deposited data

How the results depend on the processing

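With 2 libraries per genotype, counts of calls against Col-0 depended on settings more than the test over genotypes did. At an adjusted p under 0.05, 1 member was called in athb25 (CYCA2;3), 1 in hat2 and 1 in lmi1 (TSO2 in both), 3 in obp1, 10 in smb, 22 in vnd2, 10 in wrky14, 28 over genotypes and 257 over pairs. Over genotypes, 24.5% of all genes passed at this limit. For the other counts in this paragraph the share of all genes under the same setting is not given, so they show only how the calls moved. With no count filter (26321 genes) the counts were 1 in hat2, 1 in lmi1, 2 in obp1, 12 in smb, 18 in vnd2, 11 in wrky14 and 253 over pairs. In that fit the prior degrees of freedom were infinite, against 9.57 in the main fit. No gene then kept a quasi-likelihood spread of its own, so these larger counts are less cautious. A mean of at least 50 counts left 35 members, 12 of them mitotic, and 3 calls in smb. The DESeq2 test called 1 member in hat2 and 1 in lmi1, and models of 4 libraries called 5 in vnd2. Equal replicate numbers did not pair the libraries: of 36 correlations between genotypes 7 exceeded 0.1 (range -0.24 to 0.26). With the replicate block, 4 members were called in smb, 8 in vnd2, 17 over genotypes and 115 over pairs. Leaving out each library in turn gave 0 to 2 members in obp1, 0 to 7 in smb, 2 to 12 in vnd2, 0 to 3 in wrky14, 0 in the other 4 lines, 13 to 18 over genotypes and 88 to 150 over pairs. The 21 called fold changes had 522 values under alternatives, of which 413 kept the call, 109 lost it and 0 changed sign. All 21 were bound to be kept under 1 of the alternatives, the looser limit of 0.05. The cause of these differences was not tested. Counts of 0 to 429 per library limit the mitotic genes: their median standard error of 0.24 on the log2 scale leaves small changes undetected.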
